A study of Arabidopsis thaliana with 24 samples.

Results

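The circadian clock of Arabidopsis was followed through 10 core genes in wild-type and rh27-2 seedlings, at the shoot apex and at the root tip. The members were listed by name and not by a cut on their values, though with earlier results of these data known: LHY (AT1G01060), CCA1 (AT2G46830), PRR9 (AT2G46790), PRR7 (AT5G02810), PRR5 (AT5G24470), GI (AT1G22770), TOC1 (AT5G61380), ELF3 (AT2G25930), ELF4 (AT2G40080) and LUX (AT3G46640). All 10 were found among the 33341 counted loci, and all 10 passed the filter on low counts in every comparison. The study asked how RH27, a DEAD-box RNA helicase, affects microRNAs, their precursors and their targets, and this account uses its 12 mRNA libraries. They form 4 groups of 3: Col-0 wild type (WT) and rh27-2 shoot apices, and Col-0 wild type and rh27-2 root tips. The seedlings of all groups were sampled 5 days after germination, from plates of Murashige and Skoog medium with 1% sucrose, under 16 h of light and 8 h of dark. The labels give no lesion for the rh27-2 allele. Nor is it stated that the libraries of a group came from independently grown plants, so the tests speak only for the variation among the libraries at hand.

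The plant clock is a network of genes that repress each other in turn through the day. LHY and CCA1 are related MYB transcription factors whose transcripts peak around dawn, and they repress genes expressed in the evening. PRR9, PRR7 and PRR5 are pseudo-response regulators that peak one after another from morning to afternoon and repress LHY and CCA1. TOC1 belongs to the same family and peaks in the evening. GI stabilises the F-box protein ZTL, which targets TOC1 and PRR5 for degradation. ELF3, ELF4 and LUX form the evening complex, in which LUX is the DNA-binding member, and the complex represses PRR9, PRR7, GI and growth genes at night. Because each level depends on the time of day, a level at a single harvest reflects both phase and amplitude. The hour of harvest of each library is not given in the sources used here. A shift of phase, a difference in harvest time and a change of level at 1 phase therefore cannot be told apart.

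The libraries held 15603992 to 20380109 counts. RH27 itself was at 34.6, 26.8 and 30.8 CPM (counts scaled to library size with TMM over the 12 libraries) in WT shoot apices and at 25.8, 26.8 and 24.0 CPM in rh27-2 ones. In root tips it was at 25.5, 24.5 and 21.8 CPM in WT and at 12.6, 14.9 and 13.7 CPM in rh27-2. It fell in root tips (-0.80, SE 0.09, edgeR adjusted p = 8.47e-06) and was not called in shoot apices (-0.33, SE 0.12, edgeR adjusted p = 0.0712). In shoot apices RH27 passed with scaling to total counts (-0.41, edgeR adjusted p = 0.0371) and without WT replicate 2 (-0.43, edgeR adjusted p = 0.0411). Summed shoot and root markers separated the organs, but not every root marker did. WOX5 was at 4.73 ± 2.85 CPM in WT shoot apices and 0.924 ± 0.368 CPM in WT root tips, and GL2 and SCR were not called between the WT organs. The 8 shoot markers summed to 8793 to 12097 CPM in WT and 2747 to 7961 CPM in rh27-2 shoot apices, against 11.3 to 17.3 and 27.9 to 70.0 CPM in root tips. CLV3, WUS and YAB1 were at 0 in every WT root library. The 9 root markers summed to 703 to 746 CPM in WT and 415 to 449 CPM in rh27-2 root tips, and to 115 to 144 and 84.4 to 105 CPM in shoot apices, where PLT1 was at 0 in WT. Transcripts of photosynthesis differed between the genotypes in shoot apices. The 17 genes of that list summed to 36222, 31455 and 27983 CPM in WT and to 27416, 13316 and 11039 CPM in rh27-2.

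**Figure D1:**
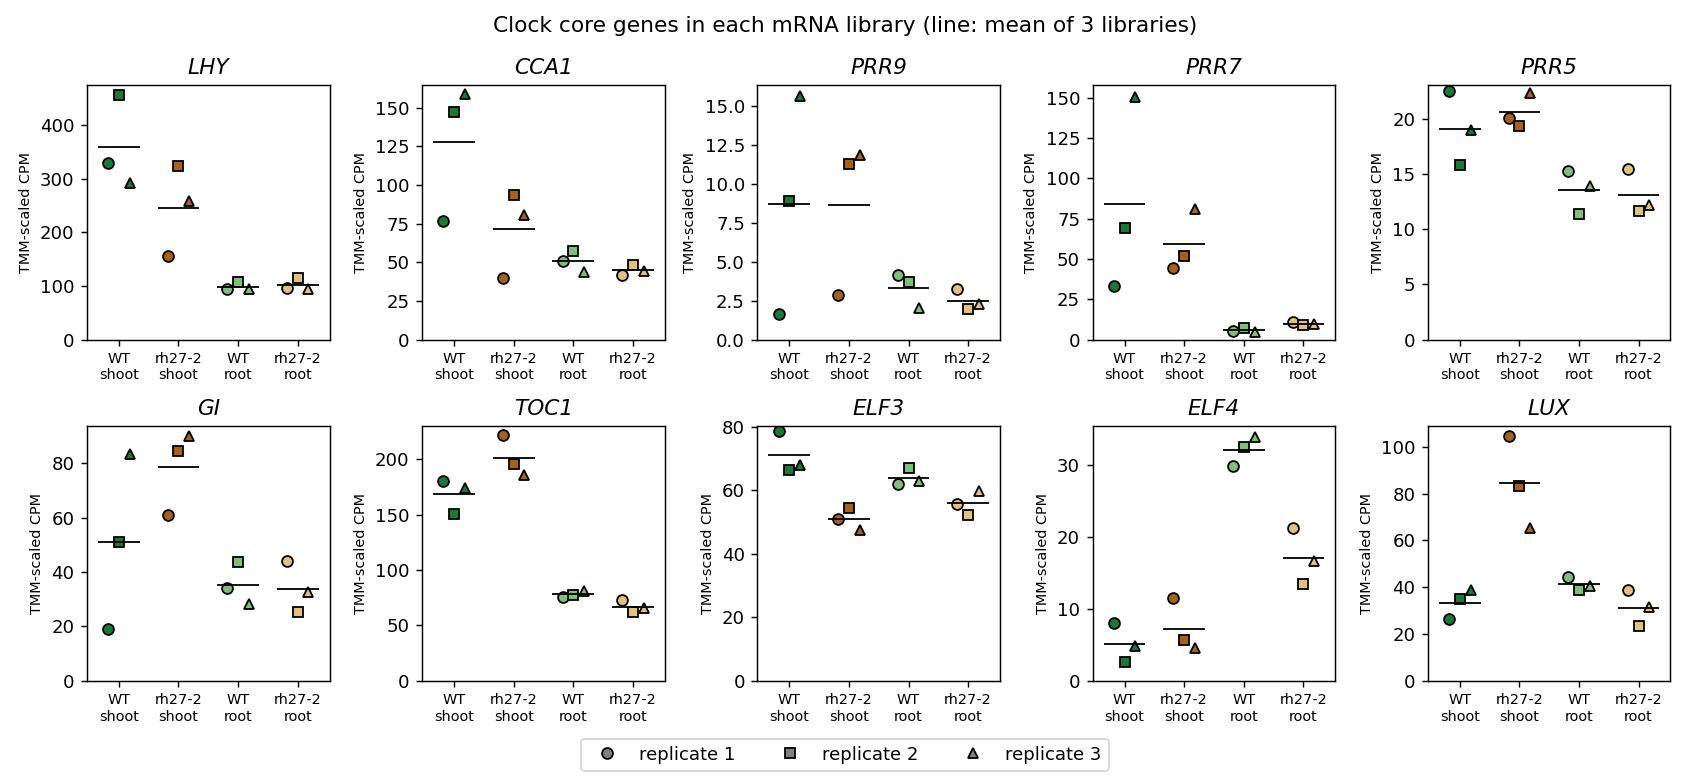
Level of each clock core gene in the 12 mRNA libraries, in TMM-scaled CPM on a linear axis from 0; each symbol is a library and the line is the mean of 3. LUX is higher in all 3 rh27-2 shoot libraries than in any other library, ELF4 is highest in WT root tips, and PRR9, PRR7 and GI spread widely within WT shoot apices.

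The libraries of shoot apices differed widely among themselves in PRR9, PRR7, GI and ELF4. In WT shoot apices PRR9 was at 1.64, 8.92 and 15.7 CPM in replicates 1, 2 and 3, a spread of 9.55 times. PRR7 was at 33.0, 69.4 and 151 CPM and GI at 19.2, 51.1 and 83.5 CPM in the same libraries. Replicate 1 was lowest and replicate 3 highest for all 3 genes. ELF4 went otherwise, at 8.02, 2.60 and 4.86 CPM, so that replicate 1 was highest. TOC1 and ELF3 hardly varied, at 180, 151 and 174 CPM and at 78.6, 66.5 and 67.8 CPM. Set beside all genes tested over the 12 libraries, the range of PRR9 within WT shoot apices exceeded that of 99.0% of genes, the range of PRR7 that of 96.1% and the range of GI that of 95.8%. LHY, which was lowest in replicate 3, exceeded 66.2%, PRR5 55.9%, TOC1 27.6% and ELF3 22.8%.

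In rh27-2 shoot apices replicate 1 again had the lowest PRR9, at 2.87 CPM against 11.3 and 11.9 CPM in replicates 2 and 3. It also had the lowest LHY (156 against 323 and 259 CPM) and the lowest CCA1 (39.9 against 93.4 and 80.6 CPM). ELF4 was highest there, at 11.5 CPM against 5.63 and 4.56 CPM. PRR7 and GI were lowest there too, at 44.6 CPM against 52.0 and 80.8 CPM and at 61.0 CPM against 84.7 and 90.2 CPM. TOC1 was highest there by a small margin, at 222 CPM against 196 and 186 CPM. In both genotypes, then, CCA1, PRR9, PRR7 and GI were lowest and ELF4 and TOC1 highest in replicate 1.

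The root libraries were more even. On the log2 scale PRR9 had the widest range of the members in WT root tips, from 2.06 to 4.15 CPM, and exceeded 92.1% of genes there. In rh27-2 root tips GI had the widest log2 range, from 25.2 to 44.0 CPM. On that scale no member spread as widely in root tips as PRR9, PRR7 and GI did in WT shoot apices.

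**Figure D2:**
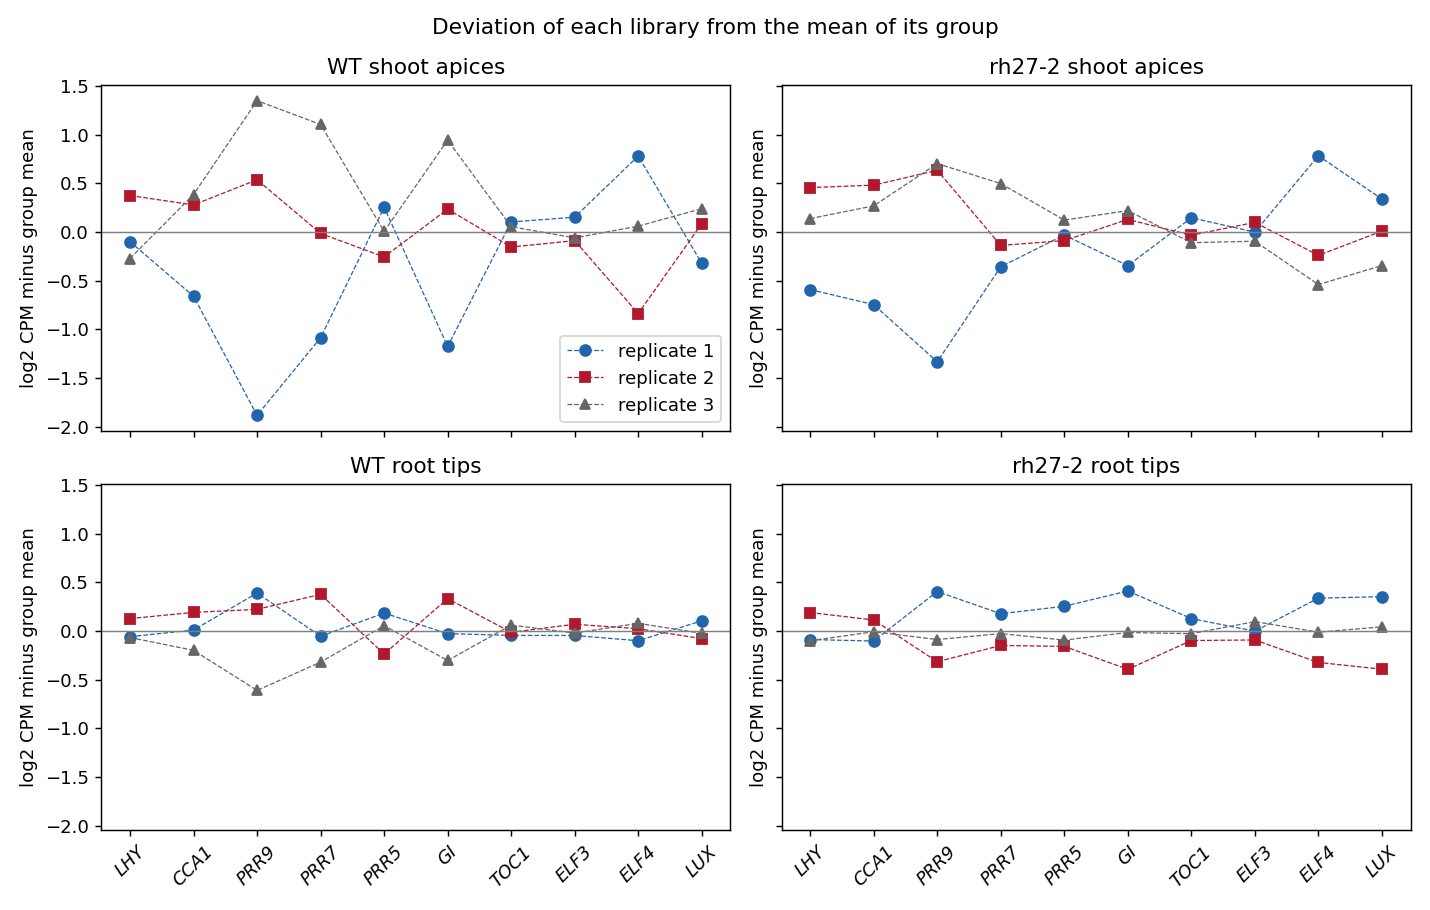
Deviation of each library from its group mean, in log2 CPM, for the 10 members in order of their usual peak from dawn to evening, in 1 panel per group; symbols are libraries. Replicate 1 of shoot apices lies far below the mean at PRR9 and above it at ELF4 in both genotypes, and root deviations stay within 0.61 of the mean.

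Among the clock core genes of shoot apices, LUX was higher and ELF3 lower in rh27-2, and the other 8 did not pass. In edgeR's test across all genes 1 member rose and 1 fell among 10, where 40.9% of the 18972 genes tested passed, 21.1% higher and 19.8% lower. The median absolute log2 fold change of the members was 0.54, against 0.46 over all genes. In bulk tissue, fewer cells with a transcript and less transcript per cell cannot be told apart.

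LUX, the DNA-binding member of the evening complex, was at 26.3, 34.8 and 38.8 CPM in WT and at 105, 83.4 and 65.3 CPM in rh27-2 shoot apices. Every mutant library lay above every WT library. The rise was 2.43-fold (log2 fold change 1.28, SE 0.22, edgeR adjusted p = 0.00539), and it passed without any one of the 6 libraries (edgeR, highest adjusted p = 0.0235). Without both replicate 1 libraries it was 0.93 (edgeR adjusted p = 0.0142). ELF3, the scaffold of the same complex, was at 78.6, 66.5 and 67.8 CPM in WT and at 50.8, 54.4 and 47.6 CPM in rh27-2. The ranges did not overlap, and ELF3 fell by 0.54 on the log2 scale (SE 0.11, edgeR adjusted p = 0.00851). ELF4, the small remaining member, was at 8.02, 2.60 and 4.86 CPM against 11.5, 5.63 and 4.56 CPM, and the groups overlapped (0.44, SE 0.48, edgeR adjusted p = 0.49). Members of the evening complex therefore did not move in 1 direction in shoot apices. Tissue markers moved with these differences. The summed photosynthesis transcripts were lower in all 3 mutant libraries, while the meristem genes STM and KNAT1 were higher, at 64.6 ± 4.38 against 12.8 ± 4.02 CPM and at 112 ± 22.6 against 29.9 ± 8.46 CPM. The lateral organ gene YAB1 was lower, at 43.3 ± 4.095 against 98.6 ± 4.503 CPM, and so was the epidermal gene GL2, at 12.4 ± 5.30 against 37.6 ± 12.2 CPM. Of the 8 shoot markers 2 rose and 3 fell among the 6 tested, and CLV3 and WUS were under 1 CPM on average in both genotypes. LUX was highest in replicate 1 of rh27-2, the mutant library with the most photosynthesis transcripts. The same library had the lowest LHY, CCA1, PRR9, PRR7 and GI and the highest ELF4 and TOC1 of the 3. The part of tissue markers in the differences was not tested.

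CCA1 was at 76.9, 148 and 159 CPM in WT and at 39.9, 93.4 and 80.6 CPM in rh27-2 shoot apices. The groups overlapped because WT replicate 1 was low, and the difference did not pass (-0.91, SE 0.38, edgeR adjusted p = 0.0928). It passed with DESeq2 (-0.90; adjusted p = 0.0452), in the fit of 12 libraries (-0.84, edgeR adjusted p = 0.0345), without WT replicate 1 (-1.19, edgeR adjusted p = 0.044) and without both replicate 1 libraries (-0.90, edgeR adjusted p = 0.0101). Over the 6 fits that leave out 1 library its edgeR adjusted p ran from 0.044 to 0.221, so the call of CCA1 rests on the choice of fit. LHY was at 329, 457 and 292 CPM against 156, 323 and 259 CPM. Its groups overlapped too (-0.61, SE 0.29, edgeR adjusted p = 0.128), and LHY passed in none of those 6 fits (lowest edgeR adjusted p = 0.0875) nor without both replicate 1 libraries (-0.44, edgeR adjusted p = 0.209). With a replicate block, kept only as an alternative, LHY (-0.64, edgeR adjusted p = 0.0281) and CCA1 (-0.92, edgeR adjusted p = 0.00175) both passed. The call of LHY thus also rests on the choice of fit.

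The daytime genes gave no call in shoot apices. PRR7 was at 33.0, 69.4 and 151 CPM in WT and at 44.6, 52.0 and 80.8 CPM in rh27-2 (-0.59, SE 0.52, edgeR adjusted p = 0.396). Its sign turned without WT replicate 3 (0.14, edgeR adjusted p = 0.80). PRR9 and PRR5 differed by -0.09 (SE 0.77) and 0.05 (SE 0.15), and the large error of PRR9 came with its spread in both groups. GI was at 19.2, 51.1 and 83.5 CPM against 61.0, 84.7 and 90.2 CPM (0.54, SE 0.48, edgeR adjusted p = 0.389). TOC1, the evening repressor of LHY and CCA1, was at 180, 151 and 174 CPM in WT and at 222, 196 and 186 CPM in rh27-2, with no overlap. That difference was small (0.20, SE 0.13) and did not pass (edgeR adjusted p = 0.244), although in the fit of 12 libraries it was 0.26 and passed (edgeR adjusted p = 0.0406).

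**Figure D3:**
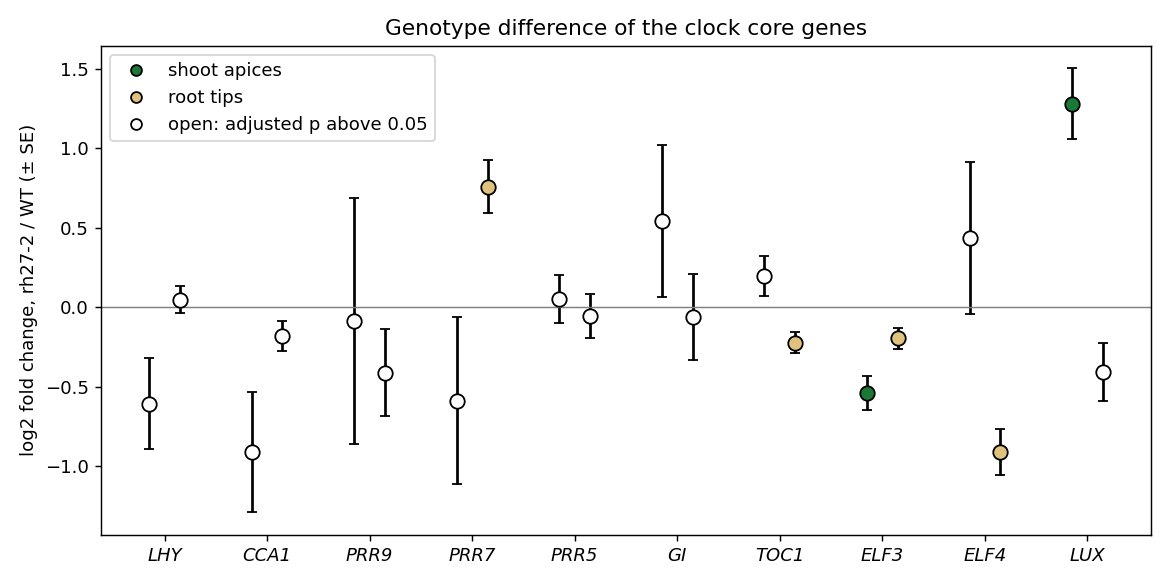
Log2 fold change of rh27-2 over WT for each clock core gene in shoot apices and root tips, with standard errors from edgeR; filled symbols passed an adjusted p of 0.05. LUX lies at 1.28 in shoot apices and -0.41 in root tips, and ELF4 at 0.44 and -0.91.

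In root tips of rh27-2, ELF4, TOC1 and ELF3 were lower and PRR7 was higher, while neither dawn gene passed the test. In edgeR's test 1 member rose and 3 fell among 10, where 62.1% of the 19443 genes tested passed, 31.3% higher and 30.9% lower. All 4 calls were lost when the 12 libraries were fitted together (edgeR adjusted p = 0.0539 for ELF4, 0.0871 for TOC1, 0.0984 for ELF3 and 0.226 for PRR7), a fit with a biological coefficient of variation of 0.153 against 0.0735 in root tips alone. The median absolute log2 fold change was 0.21 for the members and 0.36 for all genes.

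ELF4 was at 29.9, 32.5 and 33.8 CPM in WT and at 21.2, 13.4 and 16.7 CPM in rh27-2 root tips. All mutant libraries lay below all WT libraries, and ELF4 fell 1.88-fold (-0.91, SE 0.15, edgeR adjusted p = 0.000579). TOC1 was at 75.5, 77.2 and 81.2 CPM against 73.0, 62.4 and 65.5 CPM. The change was small but the groups did not overlap (-0.22, SE 0.065, edgeR adjusted p = 0.00913). ELF3 was at 61.8, 66.9 and 62.8 CPM against 55.7, 52.3 and 59.6 CPM (-0.20, SE 0.063, edgeR adjusted p = 0.0158). The calls of TOC1 and ELF3 were lost with scaling to total counts (edgeR adjusted p = 0.0857 and 0.172), and that of ELF3 also without WT replicate 2 (0.0615) or rh27-2 replicate 2 (0.0778). LUX was at 44.3, 39.0 and 40.5 CPM against 39.0, 23.3 and 31.4 CPM, so that the highest mutant library nearly reached the lowest WT one, and did not pass (-0.41, SE 0.18, edgeR adjusted p = 0.0985). It passed without rh27-2 replicate 1 (-0.60, edgeR adjusted p = 0.00124) and with DESeq2 (-0.41; adjusted p = 0.00777). The levels of all 3 evening complex genes and of TOC1 lay lower in mutant root tips, with 3 of the 4 past the threshold. Over all genes 62.1% passed there, 30.9% lower, so this count is not read as a trait of these genes. The changes of TOC1 and ELF3 were smaller than the median absolute change of all genes, 0.36. Markers of differentiated root cells were lower in the same libraries, CASP1 at 155 ± 12.1 against 328 ± 9.97 CPM, COBL9 at 54.0 ± 0.913 against 124.7 ± 8.02 CPM, EXPA7 at 33.5 ± 2.01 against 81.5 ± 10.7 CPM and GL2 at 14.1 ± 1.23 against 44.9 ± 3.87 CPM. WOX5 was higher, at 7.24 ± 0.493 against 0.924 ± 0.368 CPM. Of the 9 root markers 3 rose and 4 fell, and their part in the clock gene differences was not tested.

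PRR7, a daytime repressor of LHY and CCA1, was at 5.47, 7.37 and 4.54 CPM in WT and at 11.02, 8.78 and 9.56 CPM in rh27-2 root tips. It rose 1.69-fold with no overlap (0.76, SE 0.17, edgeR adjusted p = 0.00156), from 75 to 118 counts per WT library to 170 to 210 counts per mutant one. PRR9 was at 4.15, 3.68 and 2.06 CPM against 3.25, 1.96 and 2.31 CPM, from 34 to 85 counts a library. Its difference did not pass (-0.41, SE 0.27, edgeR adjusted p = 0.212), and neither did those of PRR5 (-0.06, SE 0.14) and GI (-0.06, SE 0.27). LHY was at 94.1, 107 and 93.6 CPM against 95.4, 116 and 94.6 CPM (0.05, SE 0.085, edgeR adjusted p = 0.645). CCA1 was at 50.6, 57.4 and 43.8 CPM against 41.6, 48.3 and 44.4 CPM (-0.18, SE 0.094, edgeR adjusted p = 0.116). CCA1 and PRR9 passed without WT replicate 3 (-0.27 and -0.65, edgeR adjusted p = 0.013 and 0.0364).

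By the interaction test, the genotype difference itself differed between organs for LUX, TOC1 and ELF4. This test and the organ tests use a shared estimate of spread over the 12 libraries. The biological coefficient of variation was 0.153 there, against 0.202 in shoot apices and 0.0735 in root tips fitted alone. In the fit of shoot apices alone TOC1 and ELF4 were not called (edgeR adjusted p = 0.244 and 0.49). The interaction term of a fit over all 12 libraries is the log2 fold change in root tips minus that in shoot apices. It was -1.75 for LUX (SE 0.30, edgeR adjusted p = 0.000813), -0.48 for TOC1 (SE 0.14; 0.0147) and -1.40 for ELF4 (SE 0.53; 0.0491). Thus 3 of 10 members passed, where 44% of the 20798 genes tested passed, 21.4% higher and 22.6% lower. The call of LUX held without each of the 12 libraries in turn (edgeR, highest adjusted p = 0.00354), as did that of TOC1 (0.0443). ELF4 passed in only 3 of those 12 fits, and without rh27-2 shoot replicate 1 its term was -0.91 (edgeR adjusted p = 0.131). The TOC1 call was lost with scaling to total counts (-0.24, edgeR adjusted p = 0.155), a scaling that moved the median of all genes by 0.23 in this comparison. That scaling also ended the ELF4 call (edgeR adjusted p = 0.0819) and brought in ELF3 (0.52, edgeR adjusted p = 0.0054), whose main term was 0.28 (edgeR adjusted p = 0.0848). The terms of CCA1 (0.66), LHY (0.60) and PRR7 (1.27) did not pass (edgeR adjusted p = 0.225, 0.158 and 0.126). That of PRR7 passed without WT shoot replicate 1 (1.65, edgeR adjusted p = 0.0173), and those of PRR7 and CCA1 without both replicate 1 shoot libraries (1.49 and 0.64, edgeR adjusted p = 0.0316 and 0.0105).

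Phase cannot be measured from a single harvest, but a ratio of an early to a late gene within a library is free of library scaling. The log2 ratio of CCA1 to TOC1 was -1.23, -0.03 and -0.13 in WT shoot apices and -2.48, -1.07 and -1.21 in rh27-2 ones. In each genotype replicate 1 had the lowest ratio, and the groups overlapped, since WT replicate 1 lay below 2 of the mutant libraries. In root tips the ratio was -0.58, -0.43 and -0.89 in WT and -0.81, -0.37 and -0.56 in rh27-2, so the groups overlapped. LHY over ELF4 gave 5.35, 7.45 and 5.90 in WT and 3.76, 5.84 and 5.82 in rh27-2 shoot apices. In root tips it gave 1.66, 1.72 and 1.47 in WT and 2.16, 3.10 and 2.50 in rh27-2, all mutant libraries lying above all WT libraries. Mean LHY there was 98.3 CPM in WT and 102 CPM in rh27-2, and mean ELF4 32.1 and 17.1 CPM. The ratio thus restates the fall of ELF4 and adds nothing independent of it. PRR9 over PRR5 overlapped between the genotypes in both organs. Its lowest values in shoot apices, -3.75 in WT and -2.79 in rh27-2, were again those of replicate 1.

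The mean log2 CPM of LHY and CCA1 minus that of TOC1, ELF4 and LUX summarises the dawn and evening sides. It was 2.81 ± 0.60 (SD, n = 3) in WT and 1.38 ± 0.95 in rh27-2 shoot apices. The mutant libraries, at 0.29, 1.94 and 1.92, all lay below the WT libraries, at 2.24, 3.44 and 2.75. In root tips it was 0.58 ± 0.18 in WT and 1.05 ± 0.40 in rh27-2, with values of 0.57, 0.77 and 0.41 against 0.68, 1.47 and 0.99. In root tips the groups overlapped. The score holds LUX, which rose in shoot apices, and leaves out ELF3, which fell there, so it adds nothing independent of those values. No test was made on these scores, since the genes in them were chosen with results of these data known.

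**Figure D4:**
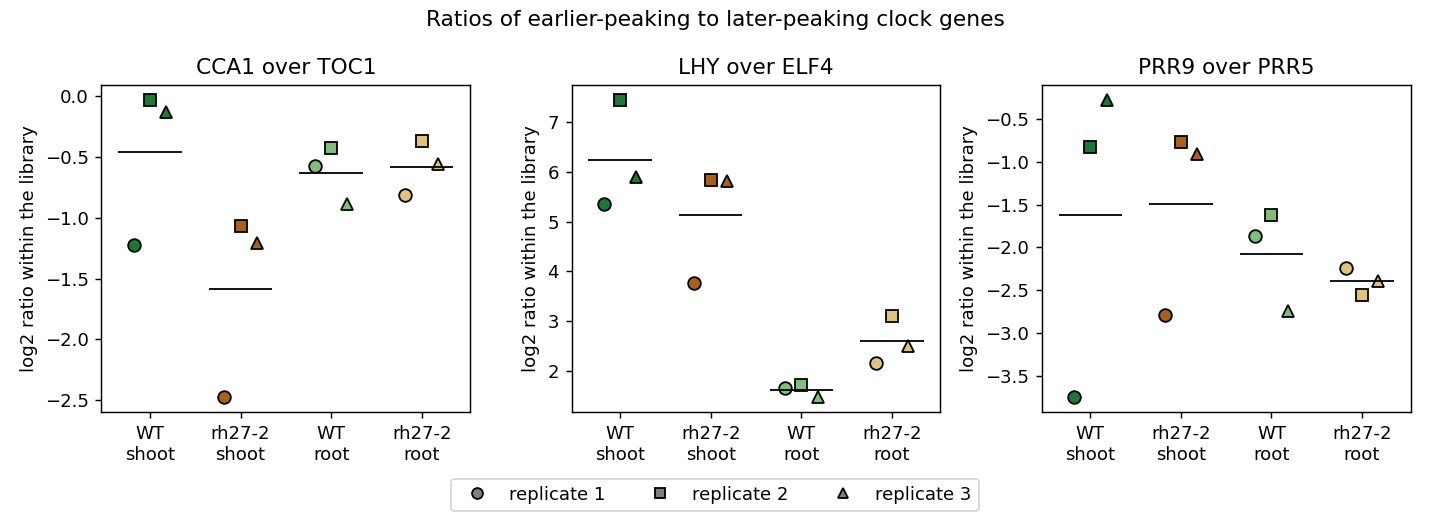
Log2 ratios within each library of CCA1 to TOC1, LHY to ELF4 and PRR9 to PRR5; symbols are libraries and lines are means of 3. CCA1 over TOC1 is lowest in replicate 1 of rh27-2 shoot apices at -2.48, and LHY over ELF4 is far lower in root tips than in shoot apices.

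Between organs ELF4 was higher and PRR7, LHY, TOC1 and PRR5 were lower in root tips in both genotypes. In WT, 1 member was higher and 5 were lower in root tips than in shoot apices, where 76.3% of the 20798 genes tested passed, 37.1% higher and 39.2% lower. In rh27-2, 1 was higher and 7 were lower, where 72.6% passed, 38.5% higher and 34.1% lower. These contrasts use the same libraries as the genotype contrasts, so their values are given side by side and are not independent of them.

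ELF4 was the member with higher levels in root tips, 32.1 ± 2.01 CPM in WT root tips against 5.16 ± 2.72 CPM in shoot apices (2.65, SE 0.38, edgeR adjusted p = 4.86e-05). In rh27-2 the difference was 1.25 (SE 0.37, edgeR adjusted p = 0.00963). The order of ELF4 levels ran from WT root tips through rh27-2 root tips (17.1 ± 3.93 CPM) to rh27-2 shoot apices (7.22 ± 3.72 CPM) and WT shoot apices, the last 2 of which overlapped. PRR7 was lower in root tips, at 5.79 ± 1.44 CPM in WT against 84.4 ± 60.3 CPM in WT shoot apices (-3.87, SE 0.49, edgeR adjusted p = 1.58e-05). In rh27-2 it was at 9.79 ± 1.13 against 59.1 ± 19.1 CPM (-2.59, SE 0.46, edgeR adjusted p = 0.000297). LHY was at 98.3 ± 7.64 CPM in WT root tips and 360 ± 86.6 CPM in WT shoot apices (-1.87, edgeR adjusted p = 1.7e-05), and rh27-2 gave -1.27 (edgeR adjusted p = 0.000414). TOC1 fell from 168 ± 15.56 to 78.0 ± 2.95 CPM in WT (-1.11, SE 0.097, edgeR adjusted p = 5.39e-07) and from 201 ± 18.6 to 67.0 ± 5.43 CPM in rh27-2 (-1.59, SE 0.098, edgeR adjusted p = 3.47e-08).

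For other members the calls differed between the genotypes or with the fit. Of the genes in this paragraph LUX alone passed the interaction test. For the others, a call in 1 genotype only does not show a difference between genotypes. CCA1 was lower in WT root tips (-1.34, edgeR adjusted p = 0.00166) and not called in rh27-2 (-0.67; 0.0634), where it passed without shoot replicate 1 (-0.96; 0.00452) and with DESeq2 (-0.71; 0.033). GI was called lower in root tips of rh27-2 (-1.21, edgeR adjusted p = 0.0186) and not of WT (-0.54; 0.243), and in WT it passed without shoot replicate 1 (-0.91, edgeR adjusted p = 0.013). The rh27-2 call of GI was lost without shoot replicate 3 (edgeR adjusted p = 0.0516), root replicate 2 (0.0741) or root replicate 3 (0.0597), and with total counts (0.0538). PRR5 was lower in root tips in both genotypes, by log2 differences of -0.49 and -0.65 (edgeR adjusted p = 0.0142 and 0.00307). The WT call of PRR5 was lost without shoot replicate 1 (-0.34, edgeR adjusted p = 0.0823) or root replicate 2 (-0.36; 0.0773). PRR9 passed in rh27-2 (-1.80, SE 0.68, edgeR adjusted p = 0.033) and not in WT (-1.40, SE 0.67; 0.0742). The rh27-2 call of PRR9 was kept in 1 of the 6 fits that leave out a library, the one without shoot replicate 1 (highest edgeR adjusted p = 0.098), and in WT PRR9 passed without shoot replicate 1 (-1.86, edgeR adjusted p = 0.00669) and with DESeq2 (-1.38; adjusted p = 0.0455). LUX was near level between organs in WT, at 41.3 ± 2.72 CPM in root tips and 33.3 ± 6.40 CPM in shoot apices (0.31, edgeR adjusted p = 0.196). In rh27-2 it was lower in root tips, at 31.2 ± 7.87 against 84.5 ± 19.8 CPM (-1.44, SE 0.21, edgeR adjusted p = 6.82e-05). ELF3 passed in neither genotype (-0.15 and 0.13, edgeR adjusted p = 0.135 and 0.198), though with total counts it was higher in rh27-2 root tips (0.40, edgeR adjusted p = 0.00128). That scaling moved the median of all genes by 0.27 there.

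Of 36 further clock-associated genes, 35 were tested in shoot apices, where 3 rose and 5 fell in rh27-2, and 34 in root tips, where 4 rose and 16 fell. Against the 40.9% and 62.1% called over all genes, 22.9% and 58.8% of the list were called. The median log2 fold change of the list was -0.21 in shoot apices and -0.22 in root tips, with -0.02 and 0.01 over all genes. In the fit of 12 libraries the counts were 5 higher and 8 lower in shoot apices and 2 higher and 10 lower in root tips, and without both replicate 1 libraries 9 were lower in shoot apices. Calls over all genes moved too, the higher ones in shoot apices from 4007 to 6192 in the fit of 12 libraries. The counts of these fits are therefore not to be set against the shares above. Of the 34 tested in both organs, 7 were called in both, 5 of them lower in both. The share of all genes called in both organs was not computed, so these counts are not read as a trait of the list. RVE4 and RVE8, MYB factors related to LHY and CCA1 that activate evening genes, were among these 5. RVE4 went from 110 ± 11.7 to 56.0 ± 2.19 CPM in shoot apices (-1.03, edgeR adjusted p = 0.00152) and from 61.7 ± 3.30 to 23.6 ± 0.926 CPM in root tips (-1.39, edgeR adjusted p = 3.05e-09). RVE8 fell by 0.90 in shoot apices (edgeR adjusted p = 0.00759) and by 0.53 in root tips (0.00016). ZTL, the F-box protein that GI stabilises, fell by 0.58 in shoot apices (edgeR adjusted p = 0.00524) and by 0.35 in root tips (0.00189). RVE1, a MYB factor of the same family that acts on auxin synthesis, and LWD1, a WD-repeat clock protein, completed the 5 (-1.49 and -0.58 in shoot apices).

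BOA, the closest relative of LUX, was called in opposite directions. It was higher in mutant shoot apices, at 38.0 ± 9.49 against 18.7 ± 2.58 CPM (0.97, SE 0.21, edgeR adjusted p = 0.0109). In root tips it was lower, at 13.7 ± 0.496 against 27.0 ± 3.20 CPM (-0.98, SE 0.096, edgeR adjusted p = 1.75e-06). The interaction term was -2.004 (SE 0.24, edgeR adjusted p = 7.76e-05), so BOA and LUX both had a lower genotype difference in root tips than in shoot apices. LIP1, a small GTPase with a role in the clock, was the other gene with opposite calls (0.29, edgeR adjusted p = 0.0478, and -0.21, 0.00412; interaction -0.57, edgeR adjusted p = 0.000782). TEJ, a poly(ADP-ribose) glycohydrolase, was the remaining gene that rose in shoot apices (0.72, edgeR adjusted p = 0.0104). In root tips ELF4-L4, a relative of ELF4, fell by 1.21 (edgeR adjusted p = 1.26e-06), CHE, a TCP factor that represses CCA1, by 0.94 (5.66e-06) and RVE7 by 1.97 (1.67e-05). The 4 that rose in root tips did so by little: SKB1 (0.27), SRR1 (0.29), XCT (0.23) and TIC (0.15). RVE7 also had an interaction term past the threshold (-1.63, edgeR adjusted p = 0.00683).

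**Figure D5:**
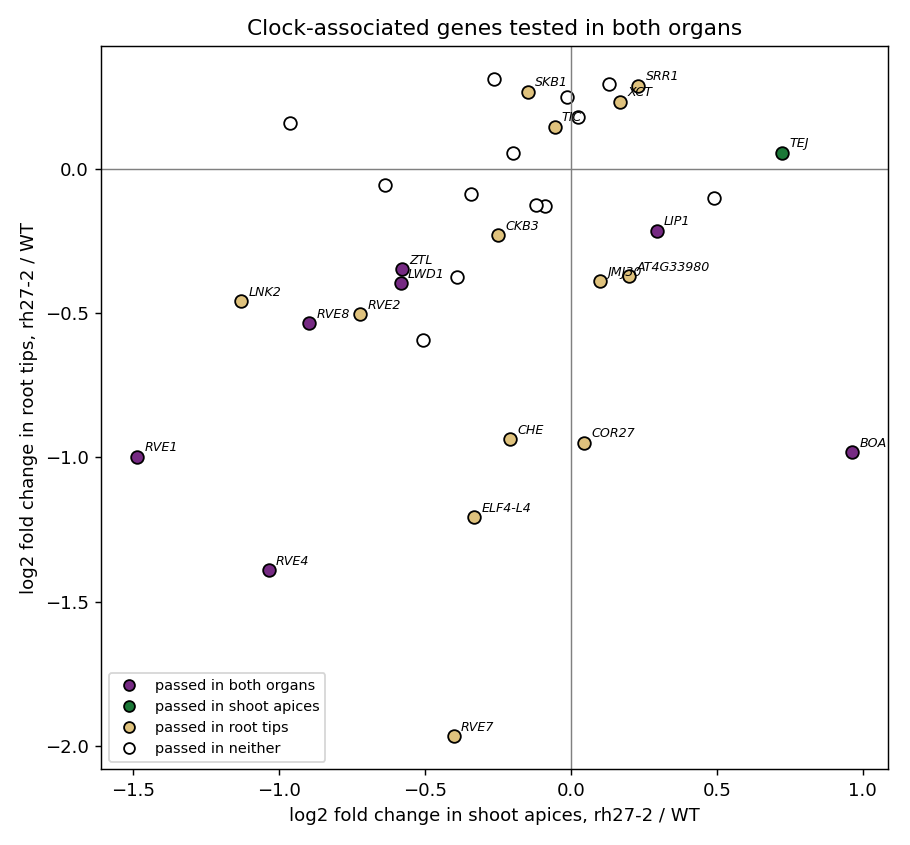
Log2 fold change of rh27-2 over WT in shoot apices (horizontal axis) and root tips (vertical axis) for the 34 clock-associated genes tested in both organs; colours mark calls at an adjusted p of 0.05, and called genes are named. RVE4 lies low on both axes at -1.03 and -1.39, and BOA lies at 0.97 and -0.98.

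Known outputs of the clock gave 2 lower of 14 tested genes in shoot apices and 6 higher and 4 lower of 13 in root tips, 14.3% and 76.9% of those tested against 40.9% and 62.1% over all genes. The root counts were 3 higher and 1 lower in the fit of 12 libraries, and in shoot apices 4 were lower without both replicate 1 libraries and 3 were higher without WT replicate 3. The shares over all genes belong to the main fits and not to these. COL2, a relative of the flowering regulator CONSTANS, fell by 0.97 in shoot apices (edgeR adjusted p = 0.00243), and the B-box factor BBX19 by 0.80 (0.0304). The BBX19 call was lost without replicate 2 or 3 of either genotype (edgeR adjusted p = 0.0523 to 0.0729). In root tips the RNA-binding protein gene GRP8 rose by 0.60 (edgeR adjusted p = 1.51e-06) and the catalase gene CAT3 from 53.8 ± 7.66 to 233 ± 51.6 CPM (2.11, edgeR adjusted p = 0.000534). The Dof repressor CDF2 fell by 0.71 (edgeR adjusted p = 5.39e-06) and CAT2 by 0.41 (7.34e-06). The calls of GRP8, CDF2 and CAT2 were lost in the fit of 12 libraries (edgeR adjusted p = 0.0776, 0.0964 and 0.319). PIF5, a growth factor gene repressed by the evening complex, was nearly absent from WT root tips, with 1, 1 and 2 counts. In rh27-2 root tips it had 42, 36 and 20 counts. It passed the low-count filter there through the rh27-2 libraries alone. Its call, 1 of the 6 higher ones, is therefore not used as support. No fold is given for so few counts. In shoot apices PIF5 was at 126 ± 50.7 CPM in WT and 166 ± 5.48 CPM in rh27-2 and was not called. The interaction passed for CAT3 (2.20, edgeR adjusted p = 0.00389) and for BBX19 (0.79; 0.0423), the latter in only 5 of 12 fits that leave out a library. That of PIF5 also passed (edgeR adjusted p = 0.00315). It rests on the same few WT root counts and is not used as support either.

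Genes of light signalling, which sets the clock, gave 1 higher and 3 lower of 18 in shoot apices and 6 higher and 8 lower of 18 in root tips, 22.2% and 77.8% against the same shares over all genes. The root counts were 3 higher and 5 lower in the fit of 12 libraries, 5 lower with total counts and 3 higher without WT replicate 3. In shoot apices 2 were higher in the fit of 12 libraries, 0 were higher without rh27-2 replicate 2, and 2 were higher and 6 lower without WT replicate 3. Here too the shares over all genes belong to the main fits alone. The photoreceptor genes CRY1 (-0.61, edgeR adjusted p = 0.0035), PHYC (-0.70; 0.00643) and UVR8 (-0.79; 0.023) fell in shoot apices, and PIF3, a factor degraded after phytochrome activation, rose by 0.90 (0.0159). Without rh27-2 replicate 2 PIF3 and UVR8 were not called (edgeR adjusted p = 0.0603 and 0.0888), and UVR8 also not without rh27-2 replicate 3 (0.0708). In root tips RUP1 and RUP2, repressors of UVR8, fell by 1.61 and 0.86 (edgeR adjusted p = 2.01e-08 and 1.78e-05). HY5, a light-response factor, fell there by 0.49 (edgeR adjusted p = 0.000107), while PIF1 rose by 1.25 (8.49e-05) and PIF3 by 0.81 (4.62e-05). RUP1 (-2.13), RUP2 (-1.17) and PIF1 (1.54) also had interaction terms past the threshold (edgeR adjusted p = 0.000134, 0.00576 and 0.00176).

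In the organ contrasts the genes named are those with the smallest adjusted p, which are not always those with the widest change. In WT root tips these were RVE8 (-1.56), LNK4 (-5.08) and RVE4 (-0.83) of the clock-associated genes, of which 8 were higher and 15 lower than in shoot apices among 35, 65.7% against 76.3% over all genes. Of the outputs they were PIF5, COL2 (-2.26) and CAT3 (-5.17), and of light signalling PIF3 (-2.71), PIF1 (-2.45) and CRY1 (-0.85), all past the edgeR threshold with lower levels in root tips. In rh27-2, RVE4 (-1.24), TEJ (-1.47) and CHE (-2.35), then PIF5, COL2 (-2.09) and BBX25 (-3.49), and PIF3 (-2.86), RUP1 (-1.68) and CRY1 (-0.79) had the smallest adjusted p in the same lists.

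Among 8947 tested genes with a symbol, the gene most like each of 9 members in log2 CPM over the 12 libraries was DEAR2 for LHY (Pearson r = 0.97), RS2Z32 for CCA1 (0.94), STO for PRR9 (0.93), AMY3 for PRR7 (0.98) and DCF for PRR5 (0.91). For GI it was MBF1C (0.90), for TOC1 HOL1 (0.995), for ELF4 ARD1 (0.97) and for LUX SEOa (0.95). STO is the B-box gene BBX24 of the output list. Among the members themselves the highest values were those of PRR5 with TOC1 (0.89), PRR9 with GI (0.89) and LHY with PRR7 (0.88). The lowest were those of ELF4 with LHY (-0.93) and with PRR7 (-0.92). The 12 libraries fall into 4 groups from 2 organs, so these values mix differences between organs, between genotypes and among libraries of a group. LUX, for example, was near level between the WT organs and highest in rh27-2 shoot apices.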

How the data were processed

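The authors deposited raw counts per locus for each mRNA library, as whole numbers without a header. The submitters' processing notes list the TAIR10 build and the tools TopHat2, HTSeq, edgeR and Bowtie2, with no role given for any. Whether counting used strand is not given in the sources used here, so overlapping and antisense loci cannot be told apart. The small RNA files were not used here. Groups came from the sample titles. Symbols came from a RefSeq table of TAIR10.1, which matched 33056 loci. That table gives AT5G65900 no symbol, and its identity as RH27 was taken from prior knowledge of the study. Genes were tested with edgeR 4.0.16 in R 4.3.3: low counts were filtered with filterByExpr (minimum count 10), libraries were scaled with TMM, fits were robust quasi-likelihood, and p-values were adjusted over all genes after Benjamini and Hochberg, with a threshold of 0.05. Each organ's 6 libraries were fitted alone for genotype, and all 12 for organ and interaction. The SE is the log2 fold change divided by the root of the F value. Levels are CPM scaled with TMM over 12 libraries, and ratios used a prior count of 0.5. No library repeated another of its group (chi-square per degree of freedom from 3.88 to 56.5). The code was tested on simulated data.

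The replicate numbers were not taken to pair libraries, so fits with a replicate block serve only as alternatives. They are given in the closing section and, for LHY and CCA1 in shoot apices, also above. Alternatives were total-count scaling, DESeq2 size factors, DESeq2 1.42.0, no filter, a replicate block, 1 fit of 12 libraries and leaving out each library. Leaving out both replicate 1 shoot libraries was added after seeing the data. The members and lists were chosen with earlier results of these data known. Named were all members, RH27, of each list the 5 called genes (3 for organ and interaction) with the smallest adjusted p, and per member the most correlated gene with a symbol, which for ELF3 is not reported here. RVE1, LWD1, LIP1, SKB1, SRR1, XCT and TIC were named after their values were seen.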

Additional observations from a re-analysis of the deposited data

Results flagged for a closer look

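The genotype difference differed between root tips and shoot apices, by the interaction term of the fit over 12 libraries, for 3 clock core genes. LUX had a term of -1.75 on the log2 scale, with all 3 rh27-2 libraries above all 3 WT ones in shoot apices and below them, by a narrow gap, in root tips. TOC1 had a term of -0.48, with rh27-2 libraries above all WT ones in shoot apices and below all of them in root tips. ELF4 had a term of -1.40, close to the threshold, with overlapping groups in shoot apices.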

How the results depend on the processing

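Whether replicate numbers pair the libraries of shoot apices depended on the genes used to judge it. Over the 20798 genes of the 12-library fit, the first check made, deviations from the group means correlated between same-numbered libraries at 0.23, 0.16 and 0.085. The third is under 0.1, a level that all 3 pairs had to pass, and WT replicate 2 went best with rh27-2 replicate 3 (0.16). Over the 18972 genes of the shoot fit, a set tried after the calls of both fits had been seen, the values were 0.39, 0.33 and 0.14, each WT library going best with its own number. The first verdict was kept. In root tips the values over the 19443 genes of that fit were 0.029, 0.030 and -0.016. The replicate block changed these calls of members: in shoot apices LHY (-0.64, edgeR adjusted p = 0.0281) and CCA1 (-0.92; 0.00175) passed, giving 3 lower members, in root tips LUX (-0.43; 0.00323), in the interaction LHY, CCA1 and PRR7 (0.0345, 0.00363 and 0.0361), giving 3 higher members, and between organs in rh27-2 CCA1 passed (0.0372) and PRR9 did not (0.0501). In shoot apices it also gave 9 lower clock-associated genes (LNK1, LNK2 and LNK3 among them, edgeR adjusted p = 0.0206, 0.00167 and 0.00831), 5 lower outputs and 2 higher light signalling genes, and it ended the call of LIP1 (0.0531). In the interaction it gave 2 higher clock-associated genes and 5 higher outputs. The share of all genes called with the block is not given here, so these counts have no background beside them.

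Counts of called members moved as follows. In shoot apices 2 were lower with DESeq2, in the fit of 12 libraries (2 higher there, with 6192 higher genes in all) and without both replicate 1 libraries. In root tips 0 were higher and 0 lower in the fit of 12 libraries, and 1 lower with total counts. Total counts gave 2 higher members between organs in rh27-2, and in the interaction 1 higher, 1 lower and 6883 higher genes. The interaction had 2 higher members without both replicate 1 libraries. Leaving out 1 library gave 2531 to 3789 higher and 1960 to 3908 lower genes in shoot apices, the fewest without rh27-2 replicate 2 (2306 lower without rh27-2 replicate 3). It gave 1 to 2 lower members in shoot apices, 2 (without rh27-2 replicate 2 or WT replicate 2) to 5 (without WT replicate 3) in root tips, and 0 to 1 higher members in the interaction.

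Signs turned for members that were not called. PRR9 in shoot apices was 0.090 with the block. With total counts PRR5 was -0.037 in shoot apices, 0.036 in root tips and 0.077 in the interaction, and GI 0.031 in root tips. Leaving out 1 library gave, in shoot apices, -0.58 to 0.63 for PRR9, -0.99 to 0.14 for PRR7, -0.087 to 0.15 for PRR5 and -0.068 to 0.86 for ELF4. It gave, in root tips, -0.052 to 0.11 for LHY, -0.20 to 0.045 for PRR5 and -0.29 to 0.12 for GI, and -0.91 to 0.025 for GI between organs in WT and -1.12 to 0.078 for PRR9 in the interaction. The causes were not tested. Ratios moved by less than 1 SD with a prior count of 2.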
